A study of Drosophila melanogaster with 2 samples.

Results

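Of 7944 reproducible ADD1 peaks in Drosophila melanogaster embryos, 275 (3.46%) had a summit within 500 bp of an annotated start of a noncoding gene and no start of a protein-coding gene within that distance. They are called noncoding-only peaks here. The choice used positions only, not the height of a peak. They lay in 270 intervals, since some broad intervals held more than 1 summit, and 286 noncoding genes had a start within reach. Counted by the nearest gene, 176 were at long noncoding RNA (lncRNA) genes, 32 at tRNA genes, 25 at antisense RNA genes, 16 at miRNA genes, 13 at snoRNA genes, 6 at snRNA genes and 2 at snoRNA host genes. The last 5 were at 3 other RNA genes and 2 pseudogenes. For comparison, 3627 peaks (45.7%) lay within 500 bp of a protein-coding start, called coding promoter peaks, and 4042 (50.9%) had no start of either kind within 500 bp.

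Noncoding genes are transcribed by different polymerases. Long noncoding, antisense and primary miRNA transcripts and most spliceosomal snRNAs are made by RNA polymerase II, whereas tRNAs, U6, 7SK and RNase MRP RNA are made by RNA polymerase III, in the tRNA genes from promoter boxes inside the gene. The annotated start of a miRNA hairpin, and of a snoRNA inside a host intron, is the end of a processed RNA and not a transcription start, so at these genes a peak near the start is a position near the mature RNA only. ADD1 is known as a partner of the heterochromatin protein HP1a and carries an ADD domain, a fold that in relatives such as mammalian ATRX reads histone H3 tails.

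The data came from whole embryos of 0 to 24 h of a transgenic line whose ADD1 carries GFP at the C terminus, with both sexes mixed and chromatin pulled down with an antibody against GFP. All samples belonged to 1 group of 2 biological replicates from that 1 line, so no comparison of conditions exists, and binding in different tissues was averaged. Sonicated chromatin of 200 to 800 bp was used, and the control used for peak calling was not analysed here. The number of reads was not given, so the depth is unknown, and the signal of a peak is a value of the authors whose scale is unstated. It served to order peaks within a list.

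Windows of 201 bases centred on the summit are shown for the members on which the results below turn, on the strand of the gene, 5′ to 3′, from genome Release 6 (dm6). The middle base is the summit. The first 6 show the strongest peak (lncRNA:CR31840), the strongest peak at a miRNA host (lncRNA:CR31044), a dosage compensation RNA (lncRNA:roX2), both members with a summit inside 100 bp of the start that held the DREF word, and 1 of the tRNA genes whose window held the B box word. Capitals mark any of the 12 words searched, on either strand.
lncRNA:CR31840 (chr2L:14023982-14024182, minus strand): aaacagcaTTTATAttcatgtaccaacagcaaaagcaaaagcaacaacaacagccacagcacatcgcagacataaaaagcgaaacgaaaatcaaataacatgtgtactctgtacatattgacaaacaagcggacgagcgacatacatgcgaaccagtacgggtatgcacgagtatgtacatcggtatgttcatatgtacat
lncRNA:CR31044 (chr3R:29214364-29214564, plus strand): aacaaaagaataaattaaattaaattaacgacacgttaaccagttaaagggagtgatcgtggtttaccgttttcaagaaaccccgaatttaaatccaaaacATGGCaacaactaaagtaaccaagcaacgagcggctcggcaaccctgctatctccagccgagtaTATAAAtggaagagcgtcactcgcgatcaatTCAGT
lncRNA:roX2 (chrX:11578941-11579141, plus strand): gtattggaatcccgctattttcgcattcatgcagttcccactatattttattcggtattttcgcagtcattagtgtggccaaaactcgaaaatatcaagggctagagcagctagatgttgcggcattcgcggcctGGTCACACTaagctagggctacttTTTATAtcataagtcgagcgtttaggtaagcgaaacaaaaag
lncRNA:CR45297 (chr2L:4811821-4812021, minus strand): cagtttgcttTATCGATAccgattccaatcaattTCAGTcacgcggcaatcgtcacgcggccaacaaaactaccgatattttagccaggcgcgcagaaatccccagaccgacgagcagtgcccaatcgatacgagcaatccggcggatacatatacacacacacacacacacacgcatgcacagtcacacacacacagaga
lncRNA:CR45596 (chr3R:14288115-14288315, plus strand): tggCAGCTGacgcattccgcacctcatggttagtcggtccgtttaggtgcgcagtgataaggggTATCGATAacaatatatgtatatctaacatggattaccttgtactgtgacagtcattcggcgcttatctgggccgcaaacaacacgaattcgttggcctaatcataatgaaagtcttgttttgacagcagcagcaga
tRNA:Ser-AGA-2-4 (chr2L:3173009-3173209, minus strand): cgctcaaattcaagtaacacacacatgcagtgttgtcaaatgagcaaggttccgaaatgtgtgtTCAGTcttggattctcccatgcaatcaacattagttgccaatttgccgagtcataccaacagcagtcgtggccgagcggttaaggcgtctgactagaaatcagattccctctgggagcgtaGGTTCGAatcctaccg

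The next windows belong to genes of the spliceosomal RNAs U1 and U4. Capitals mark here the longest run of bases that both windows share, 12 bases long. The windows were compared after their sequences had been seen.
snRNA:U1:95Ca (chr3R:23859535-23859735, minus strand): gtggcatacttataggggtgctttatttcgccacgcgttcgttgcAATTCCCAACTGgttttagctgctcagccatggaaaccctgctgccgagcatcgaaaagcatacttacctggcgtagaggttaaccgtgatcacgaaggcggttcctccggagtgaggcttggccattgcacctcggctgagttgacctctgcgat
snRNA:U4:39B (chr2L:21215098-21215298, minus strand): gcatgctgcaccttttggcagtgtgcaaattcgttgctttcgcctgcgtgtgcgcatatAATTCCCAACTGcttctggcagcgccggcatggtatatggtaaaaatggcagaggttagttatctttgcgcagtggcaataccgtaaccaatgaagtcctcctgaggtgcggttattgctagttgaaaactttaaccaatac

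The noncoding-only peaks were weaker than coding promoter peaks. Their signal ranged from 131 to 4285 with a median of 220, against 289 at coding promoter peaks and 214 at peaks away from starts. Above the median of the whole list (243) lay 43.3% of them (119 of 275, exact Clopper-Pearson 95% interval 37.3 to 49.4%), against 59.6% of coding promoter peaks (58.0 to 61.2%). The ratio of these shares was 0.726 (two-sided Fisher's exact test, Benjamini-Hochberg adjusted p = 3.23e-07, 6 planned tests). Against peaks away from starts, at 41.8% (40.3 to 43.3%), the ratio was 1.03 (Fisher's exact test, adjusted p = 0.659). Coding promoter peaks with a single gene in reach reached 56.5% and those between divergent genes 70.4%, and the noncoding-only peaks were below each (Fisher's exact test, adjusted p = 5.07e-05 and 1.98e-14). The last 3 tests were added after the data had been seen, and all of them treat peaks as independent. In the replicates taken alone, with the 7944 strongest peaks of each, 41.3% and 45.5% of noncoding-only peaks lay above the list's median, a mean of 43.4% ± 2.96 (SD, n = 2), against 59.0% ± 1.28 for coding promoter peaks. In the stronger 3972 peaks, with their own median, the ratio was 0.808 and the call was lost (Fisher's exact test, adjusted p = 0.0565).

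**Figure D1:**
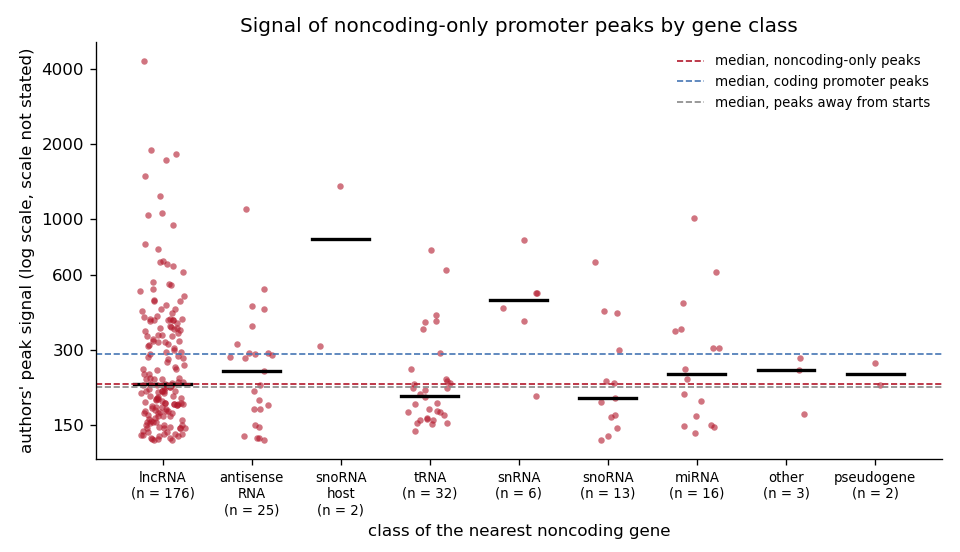
Signal of each noncoding-only peak (points, log scale, the authors' value) by the class of its nearest gene. Black bars are class medians, and dashed lines are the medians of 3 groups of peaks: noncoding-only (220), coding promoter (289) and away from starts (214). The snRNA peaks had a median of 475, and lncRNA:CR31840 stood highest at 4285.

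Noncoding-only peaks made up 3.46% of the whole list. Among its 50 strongest peaks was 1 of them, among the 200 strongest were 6 and among the 500 strongest 12. Coding promoter peaks, 45.7% of the list, numbered 27, 111 and 287 there. These counts carry no test. The strongest lay at lncRNA:CR31840, with a signal of 4285 (rank 15 of 7944), 2362 in replicate 1 and 1958 in replicate 2. Its summit was 17 bp downstream of the start and 2919 bp from the nearest protein-coding start, that of hll. A second peak of that gene in the same interval (signal 526) lay 480 bp upstream. With a further peak at lncRNA:CR45352, the locus held 3 noncoding-only summits within 2747 bp.

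The next strongest were lncRNA:CR45668 (1895), lncRNA:CR44810 (1822), lncRNA:CR44619 (1723) and lncRNA:CR44366 (1492), genes for which no role is stated here. The lncRNA:CR45668 peak had a signal of 1142 in replicate 1 and 748 in replicate 2, and was 678 bp from the start of Act5C, which encodes a cytoplasmic actin. The lncRNA:CR44619 peak differed more between the replicates, with 1260 and 450 (ranks 84 and 304). For others among the 25 strongest, the nearest protein-coding gene was one of known function. lncRNA:CR46243 (677) was 9266 bp from the nearest start of Myc, the growth regulator, beyond the median distance of 2537 bp. lncRNA:CR42657 (649) was 778 bp from the nearest start of nej, which encodes the acetyltransferase CBP. Apart from the miRNA hosts lncRNA:CR31044 and lncRNA:CR43651, whose values are given with the other hosts, the remaining lncRNA genes among the 25 were CR44917, CR45808, CR44867, CR45325, CR44363, CR46352, CR44380 and CR46265, with signals from 563 to 1057.

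The strongest noncoding-only peaks were seldom close to the start. Of the 25 strongest, 17 had a summit more than 200 bp away and 4 lay within 100 bp, those at lncRNA:CR31840, Uhg4, lncRNA:CR31044 and lncRNA:CR43651. Across all members, the median signal was 208 within 100 bp (98 peaks), 251 beyond that up to 200 bp (58 peaks) and 229 farther out (119 peaks). Limited to summits within 100 bp of a start, 33.7% of noncoding-only peaks and 59.9% of coding promoter peaks were above the list's median (ratio 0.562, Fisher's exact test, adjusted p = 6.52e-07, a comparison added after the data had been seen). The distance to the nearest protein-coding start ranged from 516 to 48779 bp with a median of 2537 bp. It was under 1000 bp for 61 members (22.2%), whose median signal was 220, and over 2500 bp for 138, whose median was 218.

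Several lncRNA peaks lay near transcript starts of genes that carry well-studied miRNAs. Of 183 long RNA genes nearest to a member (lncRNA, antisense and snoRNA host genes), 15 contain a miRNA hairpin on the same strand and 2 contain snoRNAs. These 15 are among 34 lncRNA genes with such a hairpin on the 6 arms, so 44.1% (27.2 to 62.1%) of miRNA hosts had a noncoding-only peak, against 8.33% of all 1944 lncRNA genes (162 genes, 7.14 to 9.65%). The hosts were picked out after the data had been seen, and the difference carries no test. The start of any transcript counted, so a gene with more starts had more chances of a peak, which was not adjusted for. At some hosts the start lay far inside the gene. The lncRNA:CR46006 summit was at 10364039, in a gene that begins at 10323501. lncRNA:CR44206, on the minus strand, begins at 13344808 and had its summit at 13337377. The 19 hosts with no peak at any start include lncRNA:let7C, which carries let-7, and lncRNA:iab4 and lncRNA:iab8 of the bithorax complex.

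The strongest of these was lncRNA:CR31044, the host of mir-279 and mir-996, with a signal of 1244 (rank 223), 773 in replicate 1 and 475 in replicate 2, and a summit 98 bp upstream. mir-279 is known for limiting the formation of carbon dioxide sensing neurons. lncRNA:CR43651, the host of mir-14, followed with 661 (270 and 394 in replicates 1 and 2), 11 bp upstream of the start. lncRNA:CR43626, the host of mir-282, had 437, and lncRNA:Hsromega, which carries mir-4951, had 397. The host of bantam, lncRNA:CR43334, had 3 peaks at 2 different starts with signals of 367, 290 and 176. bantam is a growth-promoting miRNA that blocks cell death. lncRNA:CR43650, the host of mir-8, also had 3 peaks, of 367, 193 and 182. Signals at lncRNA:CR43314 (mir-bft), lncRNA:CR44206 (mir-184), lncRNA:CR43857 (mir-275) and lncRNA:CR46006 (mir-276a) ranged from 221 to 322. The 5 hosts left had weaker peaks: CR45911 (182), CR42651 (172), CR45910 (153), CR43459 (150) and CR42721 (148). They carry mir-13a, mir-13b-1 and mir-2c, then mir-10, mir-1000, mir-277 with mir-34, and mir-993.

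Mature sequences of some of these miRNAs are given because 2 of the 3 hosts with more than 1 hairpin carry miRNAs of a shared seed. The seed, bases 2 to 8, is in capitals. The sequences were read from the RefSeq annotation of Release 6, on which mir-279 and mir-996 share 1 seed and mir-13a, mir-13b-1 and mir-2c another. mir-277 and mir-34, from 1 host, do not share a seed.
mir-279: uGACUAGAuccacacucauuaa
mir-996: uGACUAGAuuucaugcucgucu
mir-13a: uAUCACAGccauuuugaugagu
mir-13b-1: uAUCACAGccauuuugacgagu
mir-2c: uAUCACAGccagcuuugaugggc
mir-277: uAAAUGCAcuaucugguacgaca
mir-34: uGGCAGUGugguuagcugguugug
mir-ban: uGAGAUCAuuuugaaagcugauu

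Of 260 miRNA genes, 16 (6.15%) had a noncoding-only peak within 500 bp of the annotated hairpin, close to the 7.65% of all noncoding genes. Only 3 of the 16 peaks nearest to a miRNA gene lay within 100 bp of it. The strongest were at mir-9378 (1014, inside CG17124 on the same strand) and mir-275 (618, 435 bp upstream). mir-275 and mir-305 sit in 1 cluster: together with the host lncRNA:CR43857 they accounted for 4 summits within 2290 bp. mir-14 likewise lay in a group of 3 summits with its host. The other miRNA genes nearest to a member were mir-9377, mir-4962, mir-34, mir-2491, mir-314, mir-277, mir-4978, mir-279, mir-967 and mir-4974, with signals from 140 to 461.

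Both roX genes had a peak at the start. lncRNA:roX2 and lncRNA:roX1 are X-linked RNAs of the dosage compensation complex, which raises transcription of the male X chromosome. roX2 had a signal of 552 (304 in replicate 1 and 237 in replicate 2) with the summit 24 bp upstream. roX1 had 393 (230 and 165) with the summit 23 bp downstream. The Hsromega gene makes a heat-inducible RNA that forms nuclear speckles. Its lncRNA:Hsromega peak had 397 (199 and 214), 172 bp upstream of its nearest start. That start is internal: the summit, at 21296449, was inside the gene, which begins at 21296127. Of 18 well-known noncoding genes outside the snRNA and Uhg groups, 4 had a peak, namely these 3 and the RNA of RNase MRP (280, 203 bp downstream). Of all noncoding genes, 12.6% had any peak and 7.65% a noncoding-only one. The 14 without one include lncRNA:bxd, lncRNA:cherub, lncRNA:yar and both 7SL genes, with the nearest peak 626 to 36165 bp away.

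Genes of snRNAs had the highest share of peaks among the larger classes: 7 of 32 (21.9%, 9.28 to 40.0%) against 7.65% of all 3738 noncoding genes (286 genes, 6.82 to 8.55%). Their 6 peaks had a median signal of 475, and 5 were above the list's median. snRNA:7SKa, which makes the RNA that restrains the elongation factor P-TEFb, had 828, with 372 in replicate 1 and 456 in replicate 2, and its summit lay 225 bp inside the gene. snRNA:U1:95Ca had 507 (250 and 257) with the summit 5 bp upstream. snRNA:U6:96Ac had 507 (314 and 204) with the summit upstream of the gene, within reach of 1 other U6 gene. snRNA:U4:39B had 443 (244 and 201) with the summit 20 bp upstream. snRNA:U5:63BC (394) had a summit within 200 bp in the replicate 2 list (203) but none in the replicate 1 list. snRNA:U1:21D (196) was the weakest. The 25 snRNA genes without a peak had the nearest summit 523 to 68733 bp away, and include U11 and U12 of the minor spliceosome.

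The run shared by the U1 and U4 windows lay 60 to 49 bp upstream of the U1:95Ca start and 61 to 50 bp upstream of the U4:39B start. Drosophila snRNA genes are known to carry a proximal sequence element in this stretch of the promoter. Within 100 bp of a start the run occurred at 10 of 32 snRNA genes (31.2%), 1 of 3878 starts of other noncoding genes (0.0258%) and 1 of 19607 starts of protein-coding genes (0.00510%). The 10 include U1:95Ca and U4:39B, which count by construction. Of all 275 noncoding-only windows, 2 (0.727%) held the run, those of U1:95Ca and U4:39B, where it was given in advance because the run was taken from them. U1:21D also had the run within 100 bp of its start and had a peak, but the window of that peak did not hold the run. Among the snRNA genes with the run but no peak were U1:95Cb, U2:14B and U7. Copies of U1 genes are near-identical: 3 of the 6 snRNA windows consisted fully of 50-base stretches found once in the genome, and for U1:21D only 29.6% of stretches were. How this affects which copies show a peak was not tested.

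**Figure D2:**
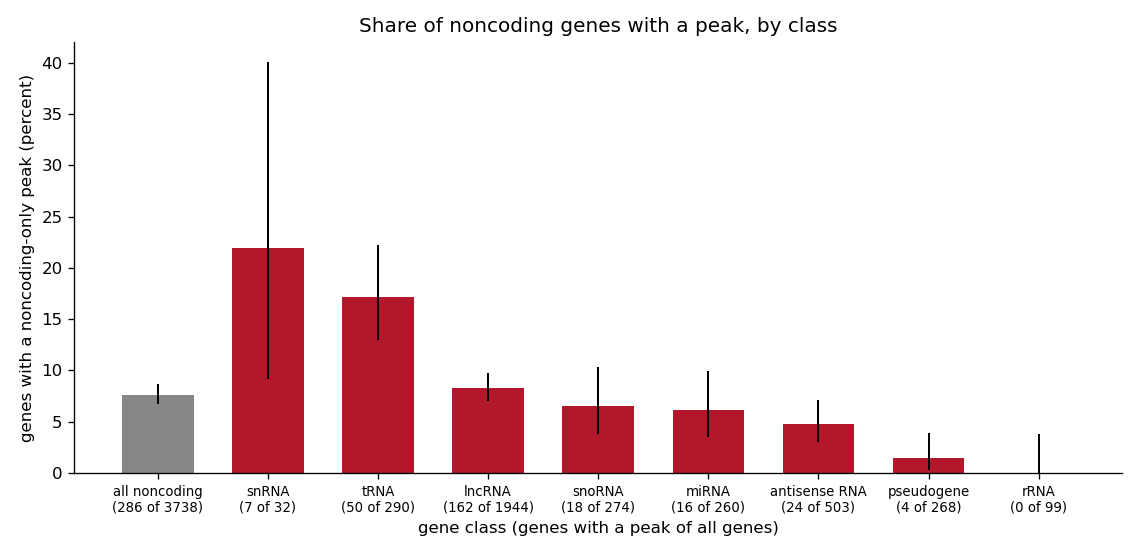
Percent of the genes of each class with a noncoding-only summit within 500 bp of a start, with exact Clopper-Pearson 95% intervals (lines). The snRNA (21.9%) and tRNA (17.2%) genes stood above all noncoding genes (7.65%), and pseudogenes (1.49%) and rRNA genes (0 of 99) were lowest.

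tRNA genes came next, with 50 of 290 genes (17.2%, 13.1 to 22.1%) in reach of a noncoding-only peak. Their peaks were mostly weak: the median signal was 197 and 8 of 32 exceeded the list's median. The strongest were tRNA:Ala-TGC-2-1 (752, with 390 in replicate 1 and 361 in replicate 2) and tRNA:Ile-AAT-1-9 (628, with 338 and 290), with summits 367 bp downstream and 498 bp upstream. Most summits lay just upstream of the gene: 25 of 32 were upstream, 17 of them within 100 bp, and the median offset was -48.5 bp. The nearest genes served 14 amino acid classes, with 5 for glutamate and 4 each for isoleucine, leucine and serine. Of the nearest genes 22 of 32 had an identical copy elsewhere, against 238 of all 290 tRNA genes (82.1%), and 20 of 32 windows consisted only of 50-base stretches found once in the genome. The part of repeated sequence in these values was not tested. A group of 4 summits within 3096 bp on arm 2R was nearest to an initiator methionine gene and 3 glutamate genes, with further genes of both kinds in reach.

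Among snoRNA genes 18 of 274 (6.57%, 3.94 to 10.2%) were within reach of a noncoding-only peak. Of the snoRNA hosts, Uhg4, whose introns carry 7 snoRNAs, had 1354 (754 and 605 in replicates 1 and 2) with the summit 74 bp upstream, and Uhg1, with 16 snoRNAs, had 311 (162 in each) with the summit 67 bp upstream. The Uhg4 peak also lay within 500 bp of 2 of its snoRNAs. Of 7 Uhg genes 4 had a peak, but those of Uhg2 and Uhg5 also lay near the protein-coding starts of Bka (264 bp) and CG12863 (334 bp) and are not counted here. The strongest peaks nearest to a snoRNA itself were at snoRNA:Or-CD4 (674), snoRNA:Me18S-C1968 (432) and snoRNA:Or-ACA6 (421).

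Antisense RNA genes had a noncoding-only peak at 24 of 503 genes (4.77%, 3.08 to 7.02%), although 79 (15.7%) had any peak. The difference follows from the rule, since antisense genes overlap protein-coding genes and many of their peaks were near a protein-coding start. Of the 25 antisense peaks, 14 lay inside a protein-coding gene, each on the opposite strand. The strongest was at asRNA:CR45999 (1104, with 681 and 413 in replicates 1 and 2), outside protein-coding genes. It was followed by asRNA:CR46145 (528, inside FER) and asRNA:CR45908 (450, inside CG1943). The 2 pseudogenes were CR43158 (266) and CR33294 (217), and 0 of 99 rRNA genes had a peak.

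In all, 12.6% of the 3738 noncoding genes had some peak within 500 bp, against 26.1% of 13945 protein-coding genes. Of 2658 noncoding genes with no protein-coding start within 1000 bp, 224 (8.43%) had a peak. In this set too, snRNA genes (7 of 27, 25.9%) and tRNA genes (44 of 211, 20.9%) had higher shares than lncRNA genes (135 of 1509, 8.95%). The shares are a description, with no test, because genes in reach of 1 summit are counted together.

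Of the 275 peaks, 93 (33.8%) were inside a protein-coding gene and 87 (31.6%) in an intron. Among all 3266 noncoding starts with no protein-coding start within 500 bp, with or without a peak, 39.3% were inside a protein-coding gene and 30.2% in an intron, and among peaks with no start in reach 72.9% and 67.5%. These shares depend on where noncoding genes lie, which the choice of members fixes, and are given with no test. Of the 93, 31 had the noncoding gene on the strand of the host, 61 on the opposite strand and 1 on both. Soft-masked sequence, the repeats marked in the genome, held 10.5% of the noncoding-only summits and 8.85% of coding promoter summits (ratio 1.19, Fisher's exact test, adjusted p = 0.326). On the chromosome arms, 71 were on 2R (25.8% against 20.2% of coding promoter peaks, adjusted p = 0.182 over 6 arms), 56 each on 2L and 3R, 48 on 3L, 40 on X and 4 on 4, and none of the 6 arms passed (Fisher's exact test). At an unadjusted p under 0.05, 2R alone passed (exact p = 0.0304). In the strongest peaks of each replicate alone, 2R did pass (replicate 1, ratio 1.37, adjusted p = 0.0262, and replicate 2, ratio 1.38, adjusted p = 0.0195, Fisher's exact tests), and X passed with a lower share in replicate 2 (ratio 0.669, adjusted p = 0.0374). With starts within 1000 bp the ratio for 2R was 0.988.

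Distance to a start chose the members, so the spread of their summits is a description with no test. Within 100 bp of the start lay 98 of 275 (35.6%), and 67.5% of coding promoter peaks. The middle 50% of offsets ran from 190 bp upstream to 132 bp downstream, and at coding promoter peaks from 103 bp upstream to 14.0 bp downstream. Upstream of the start lay 62.5%, against 68.7% (ratio 0.910, Fisher's exact test, adjusted p = 0.0445). This call did not hold under all settings: with only the 5′ ends of genes as starts the ratio was 0.958 (exact test, adjusted p = 0.435), without pseudogenes 0.911 (0.0514), without protein-coding starts within 1000 bp 0.904 (0.0589), and with a distance of 200 bp it turned to 1.05 (0.409). By class, 19 of 32 tRNA peaks, 57 of 176 lncRNA peaks and 6 of 25 antisense peaks lay within 100 bp.

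**Figure D3:**
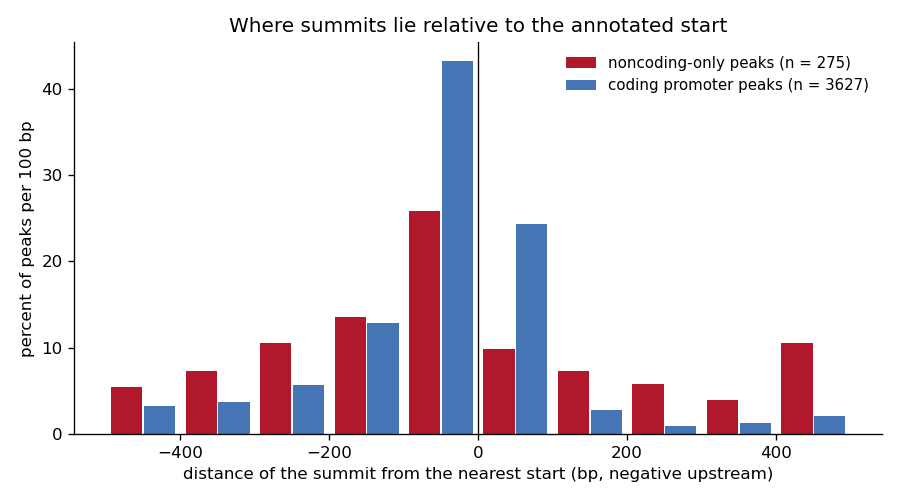
Percent of summits per 100 bp of distance from the nearest start (negative is upstream), for 275 noncoding-only peaks and 3627 coding promoter peaks. The bin just upstream of the start held 25.8% of noncoding-only and 43.2% of coding promoter summits, and the bin from 400 to 500 bp downstream held 10.5% and 2.04%.

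The sequence words known from housekeeping promoters of protein-coding genes were rare at the noncoding-only peaks. TATCGATA (DREF, BEAF-32) lay within 100 bp of 3 summits (1.09%, 0.226 to 3.15%), against 8.41% of coding promoter peaks (ratio 0.130, Fisher's exact test, adjusted p = 3.99e-06 over 12 words). These 3 were lncRNA:CR45297 and lncRNA:CR45596, printed above, and the weaker summit of lncRNA:CR31840. GGTCACACT, bound by M1BP, occurred at 2 (0.727%), against 5.60% (ratio 0.130, Fisher's exact test, adjusted p = 0.000239). The 2 were the pseudogene CR43158 and roX2, where the word began at base 136 of the window and the gene at base 125. CAGCTG, an E-box, occurred at 18 (6.55%), against 15.7% (ratio 0.416, exact test, adjusted p = 6.28e-05). AGGGCTG, known from ZIPIC, occurred at 3 (1.09%), against 4.08% (ratio 0.267, exact test, adjusted p = 0.0261). For GGTCACACT and AGGGCTG the call was lost in the stronger 3972 peaks of the list (exact tests, adjusted p = 0.176 and 0.366), for GGTCACACT also with 50 bp around the summit (0.101) and for AGGGCTG also in replicate 2 alone (0.0734).

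The other 8 words did not pass in the whole list. They were GAGAGAG (known from CLAMP and Trithorax-like), CAGGTAG (Zelda), TATAAA (the TATA box), TCAGT (the initiator), GGTTCGA (the B box inside tRNA genes), GCCAT (PHO), CACGTG (a palindromic E-box) and TGACTCA (AP-1). TATAAA was found at 22.5% of noncoding-only and 19.9% of coding promoter peaks (adjusted p = 0.532, Fisher's exact test), GAGAGAG at 6.91% and 7.75% (0.929). Against peaks away from starts none of the 12 words passed, at an adjusted p or at an unadjusted p under 0.05, and the closest was GGTTCGA (3.27% against 1.68%, Fisher's exact test, adjusted p = 0.722). GGTTCGA occurred at 9 members, 4 of them nearest to a tRNA gene. In tRNA:Ser-AGA-2-4 it began at base 186, inside the gene, which starts at base 126. Among summits within 100 bp of a start it was more frequent at noncoding-only peaks (7.14% against 2.16%, ratio 3.30, Fisher's exact test, adjusted p = 0.0261). That comparison was added after the data had been seen. Noncoding starts, with or without a peak, held the word at 5.20% and protein-coding ones at 1.83%. Since members were chosen at noncoding starts, these comparisons cannot tell the peaks from the starts. Against coding promoter peaks GGTTCGA had a ratio of 1.88 in the whole list (adjusted p = 0.231), and it passed in replicate 1 alone (ratio 2.25, adjusted p = 0.0339) and with starts within 200 bp (ratio 2.69, adjusted p = 0.0232), by Fisher's exact tests.

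The 4 words that passed also had lower shares around noncoding starts as such, a description with no test. Within 100 bp of the annotated starts of noncoding genes, with or without a peak, TATCGATA occurred at 1.15% of 3905 positions and at 6.45% of 19252 protein-coding ones. The shares were 0.589% and 4.42% for GGTCACACT, 7.32% and 13.4% for CAGCTG, and 0.948% and 2.49% for AGGGCTG. For GGTTCGA, which did not pass in the whole list, the share was higher at noncoding starts (5.20% against 1.83%). In the noncoding-only windows, the words were about as frequent 500 bp to the lower side of the summit: none of the 12 passed (exact binomial test). The lowest exact p was that of TATAAA (22.5% at the centre against 31.6% in the flank, p = 0.0199, adjusted p = 0.239), the only word with an unadjusted p under 0.05. A match of letters is no binding site, and the GC content of the windows was alike, with medians of 43.8% and 43.3%.

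**Figure D4:**
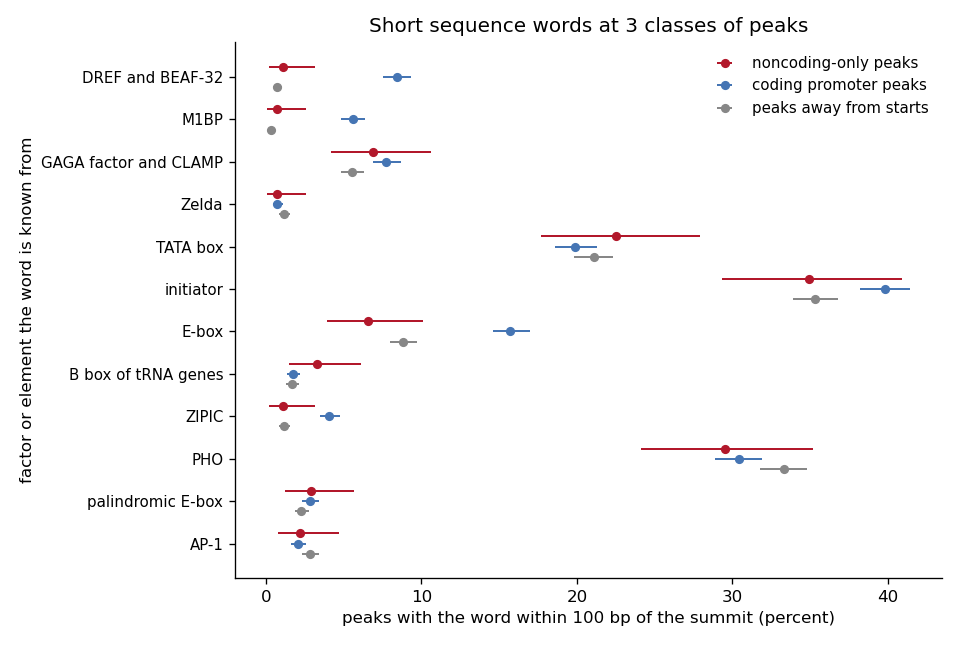
Percent of peaks with each of 12 words within 100 bp of the summit (points, with exact Clopper-Pearson 95% intervals), named by factor or element. The words of DREF and BEAF-32 (1.09% against 8.41%), M1BP, the E-box and ZIPIC lay lower at noncoding-only than at coding promoter peaks and near the peaks away from starts.

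Almost all noncoding-only peaks were found in both replicates. A summit lay within 200 bp in both replicate lists for 272 of 275 (98.9%), against 3445 of 3627 coding promoter peaks (interval 94.2 to 95.7%, ratio 1.04, Fisher's exact test, adjusted p = 0.00158) and 97.5% of peaks away from starts (adjusted p = 0.259). The call against coding promoter peaks was lost under 3 settings. With 50 bp for matching the ratio was 0.987 (exact test, adjusted p = 0.625), and in the stronger 3972 peaks it was 1.04 (0.107). For the 7944 strongest peaks of replicate 1 it was 1.01 (0.461). Those peaks always match their own list, so that ratio holds a match to replicate 2 only. The replicate lists held 30000 peaks each and are the source of the combined list, so a match is no independent check. The 3 with no summit within 200 bp in 1 list were snRNA:U5:63BC and tRNA:Leu-TAA-1-1 in replicate 1 and mir-4974 in replicate 2. Among the 7944 strongest peaks of both replicates were 198 (72.0%), against 76.0% of coding promoter peaks. Across the 272 peaks the log signals of the replicates had a Pearson correlation of 0.679, given as a description.

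**Figure D5:**
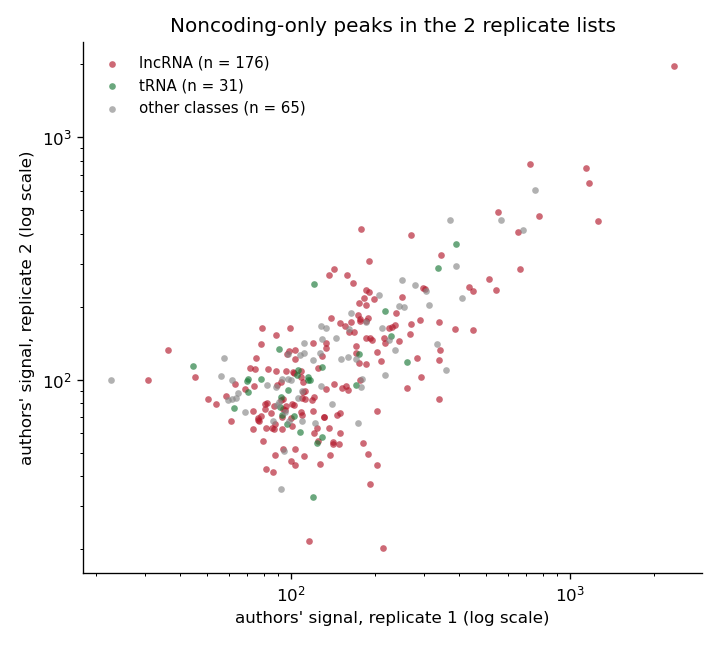
Signal of 272 noncoding-only peaks in the replicate 1 list (x axis) and the replicate 2 list (y axis), both log scales of the authors' value, coloured by class. The peak at lncRNA:CR31840 is at the upper right (2362 and 1958), and most tRNA peaks lie among the weaker ones.

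The members were not all separate loci. Of the 275 peaks, 243 had 1 noncoding gene in reach, 29 had 2 and 3 had 3. The last were at Uhg4 and at a pair of tRNA groups around tRNA:Leu-CAA-2-1 and tRNA:iMet-CAT-1-1. Of the 252 nearest genes, 19 were nearest to more than 1 peak, and 4 of these had 3 peaks, namely lncRNA:CR43334, lncRNA:CR43650, lncRNA:CR43928 and lncRNA:CR43423. With gaps of at most 5000 bp, 9 groups of 3 or more summits held 31 members. Around bantam, lncRNA:CR43423 and lncRNA:CR43334 made up 4 summits within 2119 bp, with signals from 176 to 229.

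The edges of the rule were as follows. Just inside the limit to a noncoding start were the peaks at asRNA:CR45912 (500 bp, signal 287), lncRNA:CR45618 (499 bp, 284) and tRNA:Ile-AAT-1-9 (498 bp, 628). Just outside were those near lncRNA:CR44331 (503 bp, 182), lncRNA:CR45352 (506 bp, 807) and lncRNA:CR46204 (509 bp, 231). Closest to a protein-coding start among the members were lncRNA:CR43148 (516 bp from CG2201, 220) and asRNA:CR44124 (517 bp from Ankle2, 247). Left out by that limit were tRNA:Asp-GTC-1-4 (496 bp from Sema1a, 138) and tRNA:Arg-ACG-1-3 (484 bp from EcR, 203). The counts of members follow these limits: 177 with 200 bp for both, and 8 of the 25 strongest peaks remained among them.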

How the data were processed

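Peak lists of ADD1 ChIP-seq were used, 1 for each of the 2 replicates, 1 joint list and 1 that passed the authors' irreproducible discovery rate, with coordinates of dm6, per the file headers and descriptions. Aligner, peak caller and read depth: not given in the sources used here. As signal, the authors deposited 1 value a peak, whose scale is unstated, and it was compared only within a list. Starts, genes and sequence came from genome Release 6 with FlyBase annotation 6.54 (Ensembl release 115), and mature miRNAs from RefSeq. Records of mature miRNAs and transposable elements were not counted as genes. A start is the 5′ end of any transcript. Intervals of shares (95%, exact Clopper-Pearson) hold counting error alone. Shares were compared by two-sided Fisher's exact tests that treat peaks as independent and do not measure the spread between replicates, with Benjamini-Hochberg adjustment (scipy 1.17.1, pandas 2.3.3, Python 3.11.15). Words were searched on both strands within 100 bp of the summit, and in windows centred 500 bp to the side. Matching of replicates used 200 bp. The functions were tested on simulated data. The members, classes, words and gene lists were chosen with earlier results of these data known. Named genes are the 25 strongest members, up to 3 per class, listed well-known RNAs, miRNA genes and hosts, members with most genes, members at the limits and carriers of words that passed. The miRNA hosts and the run shared by U1 and U4 were added after values had been seen. No sequence from arm 2R is printed. The alternatives were each replicate alone, the stronger 3972 peaks, other distances, gene ends only, no pseudogenes and other windows.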

Additional observations from a re-analysis of the deposited data

How the results depend on the processing

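No paired analysis was possible because the series holds 1 group only. Of 12 alternatives planned and 2 added, the lower share of strong peaks against coding promoter peaks kept its direction and its call in those that recomputed it, except in the stronger 3972 peaks (ratio 0.808, exact test, adjusted p = 0.0565) and against peaks away from starts (1.03). The count of 275 (3.46%) moved to 119 (3%) in the stronger 3972 peaks and 177 (2.23%) with 200 bp, and the percent to 4.14% with 1000 bp and 2.69% without protein-coding starts within 1000 bp. The percent of noncoding genes with such a peak (7.65%) became 3.40%, 5.03% and 5.78% with the stronger peaks, 200 bp and the 1000 bp limit. The ratio of upstream shares was 1.05 with 200 bp, and its call was lost with gene ends (0.958), without pseudogenes (0.911) and without protein-coding starts within 1000 bp (0.904). The ratio for finding a peak in both replicates was 0.987 with summits within 50 bp and lost its call in the stronger peaks (1.04). With 1 replicate left out it ranged from 1.01 to 1.14, but there it holds a match to the other replicate only. The ratio of soft-masked summits ranged from 0.991 to 1.18 with 1 replicate left out. It was 1.30 with 1000 bp and 1.65 when masking was judged on the bases around the summit. The number of arms that passed ranged from 1 to 2 with 1 replicate left out (2R in both, X in replicate 2). It was 0 in the other alternatives that recomputed it. The number of words that differed from the flank ranged from 0 to 1 (TATAAA in replicate 2). Of the words, 2 passed in the stronger peaks and 0 against peaks away from starts, where the ratios of TATCGATA and GGTCACACT were 1.52 and 2.10. GGTTCGA turned to 0.826 in the stronger peaks, but passed in replicate 1 alone (2.25), with 200 bp (2.69) and within 100 bp of a start (3.30), and arm 2R to 0.988 with 1000 bp. The causes were not tested. Depth is unknown, so a gene without a peak is not shown to be free of ADD1.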
